A study of Mus musculus with 12 samples.

Results

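Chromatin accessibility of bone marrow derived macrophages in a rest phase was compared with that in a first phase, over 8 of the 12 ATAC-seq libraries of the series. The rest phase holds 4 libraries, 2 of diabetic-trained and 2 of untrained cells, and the first phase holds 4, 2 of diabetic and 2 of healthy cells. All cells came from male C57BL/6J mice that were 8 weeks old at the start. The diabetic groups had received streptozotocin, a toxin of the insulin-producing beta cells, at 42 to 45 mg/kg a day for 5 days, passed a blood glucose of 16.9 mmol/L and stayed hyperglycaemic for 6 weeks. For the rest phase, marrow progenitors of both kinds of mice were grown for 7 days with M-CSF in medium with 5 mmol/L glucose. The labels do not say when or how the first-phase cells were collected, whether libraries come from separate animals, or whether the phases were prepared together. Culture, collection and batch therefore cannot be told apart in what follows, and the p-values reflect how far libraries of a phase vary, whether that variation is biological or technical. The 139999 peaks of the authors' tables are the same in both phases and were joined by position, and 139571 of them could be tested.

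In ATAC-seq the Tn5 transposase cuts and tags DNA where nucleosomes leave it open, so a peak of reads marks an accessible promoter or distal regulatory element. M-CSF acts through the receptor Csf1r and drives marrow progenitors to become macrophages, under the factors PU.1 (Spi1), Maf and members of the C/EBP and AP-1 families. Macrophages are known for phagocytosis, lysosomal digestion, complement synthesis and the uptake of dying cells, while marrow also makes neutrophils, erythroid cells and B cells, which depend on other growth factors.

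Because the differences were large at gene starts, the RefSeq promoter windows of 5 of these genes are shown first (GRCm38.p6, 250 bases before to 50 after the start, written along the gene's strand). Capitals mark matches to short motifs that were searched on both strands: TTGCNNAA for C/EBP, GAGGAAGT for PU.1, TGANTCA for AP-1 and AGATAA for GATA factors. S100a9 and Ngp, both neutrophil granule genes, and Hbb-bt, an adult beta globin gene, had starts that were lower in the rest phase. C1qc, a chain of complement C1q, and C3ar1, the receptor of complement fragment C3a, had starts that were higher.
S100a9: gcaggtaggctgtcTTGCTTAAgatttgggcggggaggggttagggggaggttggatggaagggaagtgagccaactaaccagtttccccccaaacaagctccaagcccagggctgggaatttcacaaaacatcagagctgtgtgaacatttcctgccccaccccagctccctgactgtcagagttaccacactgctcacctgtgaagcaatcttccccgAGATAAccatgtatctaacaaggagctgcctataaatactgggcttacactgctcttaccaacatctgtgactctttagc
Ngp: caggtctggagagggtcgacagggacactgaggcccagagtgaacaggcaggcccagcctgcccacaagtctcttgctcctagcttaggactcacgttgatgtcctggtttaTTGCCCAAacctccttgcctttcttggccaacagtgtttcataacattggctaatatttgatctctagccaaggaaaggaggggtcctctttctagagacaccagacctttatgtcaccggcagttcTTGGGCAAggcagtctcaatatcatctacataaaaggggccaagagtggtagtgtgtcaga
Hbb-bt: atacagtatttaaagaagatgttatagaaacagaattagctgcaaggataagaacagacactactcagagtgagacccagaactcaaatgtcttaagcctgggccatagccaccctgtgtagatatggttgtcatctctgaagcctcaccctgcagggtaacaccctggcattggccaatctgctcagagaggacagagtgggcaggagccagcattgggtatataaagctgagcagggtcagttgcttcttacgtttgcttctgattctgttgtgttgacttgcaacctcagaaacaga
C1qc: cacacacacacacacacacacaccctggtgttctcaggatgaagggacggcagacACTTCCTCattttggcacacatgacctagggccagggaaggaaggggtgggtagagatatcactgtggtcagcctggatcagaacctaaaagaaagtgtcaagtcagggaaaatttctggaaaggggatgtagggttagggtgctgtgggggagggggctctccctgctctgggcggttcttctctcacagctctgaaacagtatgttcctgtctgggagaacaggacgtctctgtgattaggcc
C3ar1: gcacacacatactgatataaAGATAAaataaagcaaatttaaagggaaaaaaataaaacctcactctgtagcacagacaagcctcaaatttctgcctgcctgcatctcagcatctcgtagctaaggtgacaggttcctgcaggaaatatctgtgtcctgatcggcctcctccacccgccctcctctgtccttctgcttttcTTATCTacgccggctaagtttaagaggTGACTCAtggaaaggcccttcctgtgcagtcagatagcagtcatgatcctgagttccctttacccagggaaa
The window of S100a9 lies at chr3:90695672-90695971 on the minus strand and holds 1 C/EBP and 1 GATA match. Ngp (chr9:110419558-110419857, plus strand) holds 2 C/EBP matches, C1qc (chr4:136892865-136893164, minus strand) 1 PU.1 match, and C3ar1 (chr6:122856108-122856407, minus strand) 1 AP-1 and 2 GATA matches. None of the searched motifs has a match in the window of Hbb-bt (chr7:103813874-103814173, minus strand). A match says only that these letters are present.

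The rest-phase libraries held 18602702, 15990510, 5454931 and 8770110 reads in peaks, against 4180385, 4391705, 9058297 and 6120531 in the first phase. They are called A1, A2, B1 and B2 in each phase, after the 2 mean columns of the authors' tables, which do not say which column is the diabetic group. The first principal component held 81.7% of the variance over 51196 well covered peaks and separated the phases, and the second held 6.8% and separated columns A and B of the rest phase. Spearman correlations ran from 0.856 to 0.973 within the rest phase, from 0.812 to 0.946 within the first phase, and from 0.245 to 0.455 between phases. Libraries A1 and A2 of the first phase had reads that agreed almost within counting noise, with an observed variance 1.13 times that of counting (1.08 times in peaks with at least 400 reads), and were counted as 1 sample, so that n = 4 for the rest phase and n = 3 for the first. B1 and B2 of the first phase stood far apart, at 6.97 times, and 23.4 times in peaks with at least 400 reads, against 2.07 to 3.05 times and 2.62 to 5.25 times in the rest-phase pairs.

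The accessible chromatin differed between the phases at 53501 peaks, 38.3% of all those tested, in both directions in near equal number. In the rest phase 27059 peaks (19.4%) were higher and 26442 (18.9%) lower than in the first phase, at an adjusted p under 0.05 by limma on quantile-scaled reads. The median log2 fold, rest over first, was 1.48 among the higher peaks, -1.49 among the lower ones and 0.01 over all. Among tested peaks the large changes were more often losses. A log2 fold of 3 was passed by 3340 lower peaks and 1124 higher ones, and 4 by 674 lower and 106 higher ones. Peaks with a group mean listed as 0 were left out. Such zeros fell at 344 and 40 peaks in first-phase columns A and B, against 55 and 4 in those of the rest phase. The floor differed too, since 1 read was a log2 level of 2.09 in first-phase library A1 and 1.00 in rest-phase library A1. What part these limits have in the excess of large losses was not tested. The higher peaks had median log2 levels of 5.77 in the rest phase and 4.11 in the first phase, and the lower peaks 3.97 in the rest phase and 5.96 in the first phase. All 8 libraries were apart by phase at 46418 of the called peaks (86.8%), against 37.6% of all tested peaks. Scaling to total reads in peaks shifted the median log2 fold of all peaks to 0.29 and gave 36815 higher and 18670 lower peaks, so that 66.4% of its calls were higher, against 50.6% with quantile scaling. The numbers of higher and lower peaks are therefore relative to the scaling, and the changes below are given on the quantile scale.

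**Figure D1:**
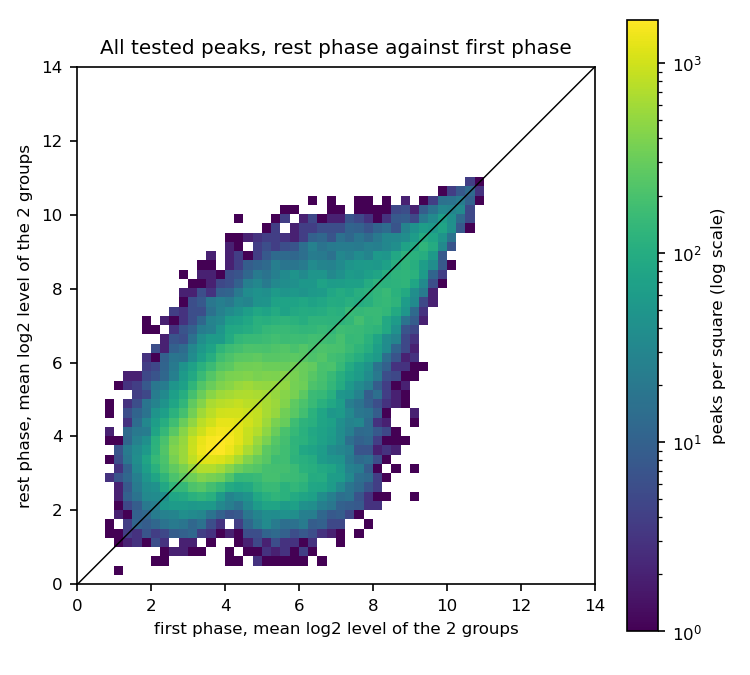
Mean log2 level of the 2 groups in the rest phase (vertical axis) against the first phase (horizontal axis) for the 139571 tested peaks, with colour for the number of peaks in each square on a log scale and a line where the phases are equal. Peaks spread to both sides of the line, and those below it reach first-phase levels of about 9 at low rest-phase levels.

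Gene starts were lower in the rest phase far more often than they were higher. Of 23341 peaks within 1 kb of a start, 2871 (12.3%) were higher and 7496 (32.1%) lower, with a median difference of group means, rest minus first, of -0.35 on the log2 scale, against 0.03 over all peaks. Peaks in later introns leaned the other way (21.3% higher and 14.9% lower), as did distal intergenic peaks (20.7% and 15.8%). The lean to higher accessibility was greatest more than 50 kb from a start, where 5227 of 22149 peaks (23.6%) were higher and 2959 (13.4%) lower, with a median difference of 0.28. Starts made up 10.6% of the higher peaks, 28.3% of the lower ones and 16.7% of all. The same shift showed in the reads themselves: autosomal start peaks held 32.7%, 34.3%, 40% and 41.1% of the reads in peaks of the rest-phase libraries, against 56.8%, 58.1%, 57.9% and 48% of those of the first-phase libraries. These shares do not overlap between phases, and their part in the number of lower start peaks was not tested. Start peaks were more often lower than higher under each of the 16 other settings. With total reads 3874 were higher and 7035 lower (over all peaks 26.4% and 13.4%), and with median-of-ratios scaling 2586 and 8923 (over all peaks 19.4% and 18.6%).

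**Figure D2:**
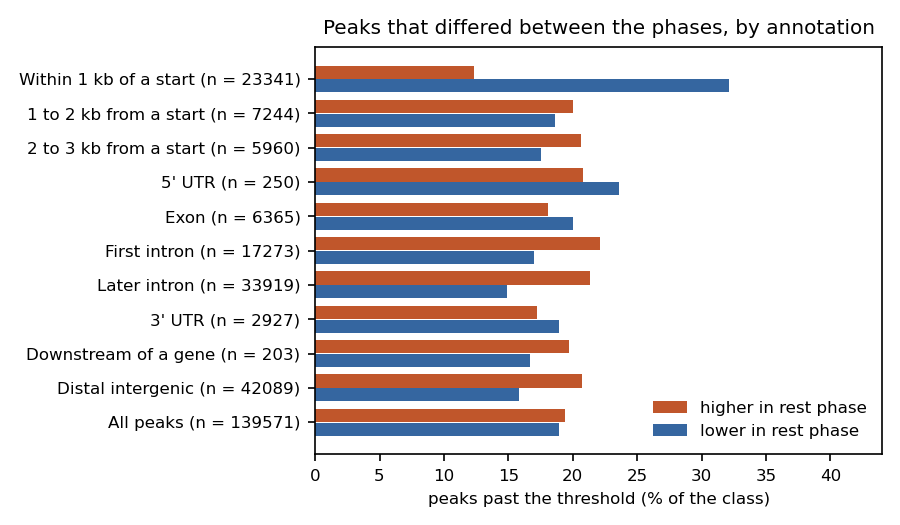
Share of peaks in each annotation class that were higher (orange) or lower (blue) in the rest phase at an adjusted p under 0.05, with the number of tested peaks of the class beside its name. The class within 1 kb of a start stands apart with 12.3% higher against 32.1% lower, while introns and distal intergenic regions lean to higher.

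Among macrophage genes, peaks that were higher in the rest phase outnumbered lower ones, with exceptions such as Spi1, Itgam and Mpeg1. Genes were grouped by the nearest start that the authors' tables assign to each peak, and 28 lists were counted. Among 12 start peaks of defining macrophage markers, 8 were higher and 2 lower, against 12.3% and 32.1% of all start peaks. Summed scaled reads of the 12 ran from 3343 to 4682 in rest-phase libraries and from 1699 to 2651 in first-phase libraries. The higher ones include C1qa, C1qb and C1qc, which lie close together on chromosome 4, and Adgre1. Group means of Adgre1 overlapped, at 6.74 and 7.08 in the rest phase against 6.75 and 5.68 in the first phase. Its call was lost under several settings, as without first-phase library B1 (log2 fold 0.46). Over the gene, 2 peaks were higher and 2 lower of 18. Log2 levels at the start of C1qc were 8.63, 8.61, 8.74 and 8.46 in rest-phase libraries, against 5.50, 4.68, 6.03 and 5.61 in the first phase. All 4 rest-phase libraries were above all first-phase ones, with a log2 fold of 3.01 (SE 0.23, adjusted p = 9.04e-07). Cd68, a lysosomal membrane glycoprotein, was highly open in both phases, at 10.54, 10.38, 10.03 and 10.21 in the rest phase, against 8.96, 8.77, 8.77 and 9.45 in the first phase. Its log2 fold was 1.26 (SE 0.17, adjusted p = 6.24e-05), and 0.24 with median-of-ratios scaling, where the call was lost (adjusted p = 0.442). The start of Csf1r itself did not pass the test, with 8.20, 7.77, 7.69 and 7.83 in the rest phase, against 7.66, 7.61, 6.96 and 7.44 in the first phase (log2 fold 0.53, SE 0.22, adjusted p = 0.0684). A second Csf1r peak, 794 bases past another annotated start of the gene, was higher in the rest phase (log2 fold 3.18, SE 0.29, adjusted p = 2.91e-06). The start of Itgam, the integrin CD11b of myeloid cells, overlapped between phases (0.36, SE 0.32, adjusted p = 0.407). The starts of Spi1 and Mpeg1, a pore-forming protein of phagocytes, were lower, with log2 folds of -0.76 (adjusted p = 0.0203) and -1.01 (adjusted p = 0.00474). The call at Spi1 was lost without rest-phase library B2 (-0.61) or first-phase library B2 (-0.48), and that at Mpeg1 with total reads (-0.76).

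**Figure D3:**
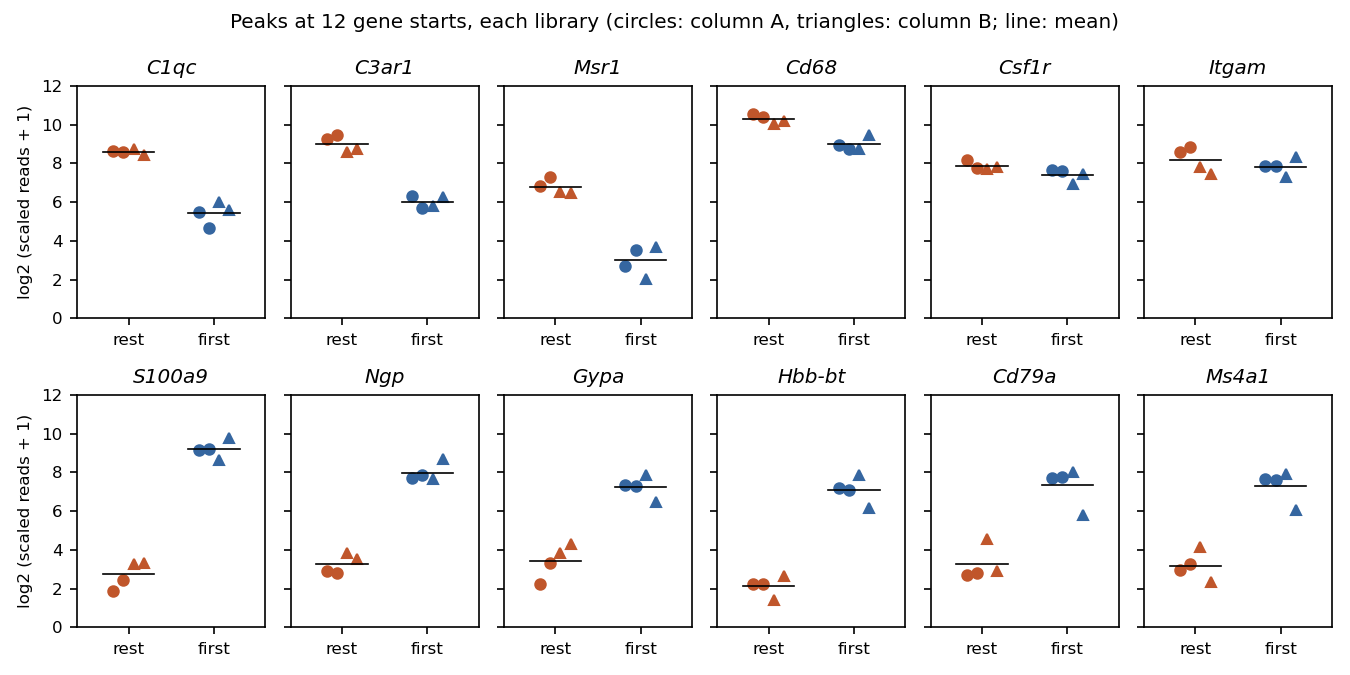
Log2 (quantile-scaled reads + 1) of the peak at 12 gene starts in each library, rest phase at the left and first phase at the right of each panel, with circles for column A, triangles for column B and a line at the mean of the 4 libraries. C1qc, C3ar1, Msr1 and Cd68 are higher in all rest-phase libraries, the gap at Csf1r is narrow and did not pass the test, Itgam overlaps, and the 6 neutrophil, erythroid and B cell starts of the lower row are higher in all first-phase libraries.

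The whole macrophage core list had 76 higher and 35 lower peaks of 251, with a median difference of 0.39. Lgals3, which encodes the lectin galectin-3, had 11 higher and no lower of 14 peaks and Sirpa, an inhibitory receptor, 9 and 1 of 16, while Itgam had 0 higher and 8 lower of 19 and Spi1 0 and 8 of 11. The peak 1726 bases before the Lgals3 start read 9.94, 9.55, 9.47 and 9.43 in the rest phase, against 6.24, 6.21, 6.65 and 6.34 in the first phase (log2 fold 3.19, SE 0.19, adjusted p = 2.19e-07). Of 42 complement peaks 16 were higher and 6 lower. The start of C3ar1 stood at 9.28, 9.47, 8.60 and 8.73 in the rest phase, against 6.30, 5.70, 5.81 and 6.27 in the first phase, a log2 fold of 2.98 (SE 0.24, adjusted p = 1.14e-06). C3, the central component of complement, had a lower start (-0.99, SE 0.28, adjusted p = 0.0125), a call that was lost with total reads (-0.58), without first-phase library B2 (-0.72) and without column A of the rest phase (-0.91). Without first-phase library B2 (18.1% higher and 17.1% lower over all peaks) 1 complement peak was lower in place of 6, and without rest-phase library A1 3 were.

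Receptors for the uptake of lipids and dying cells leaned strongly to higher accessibility. Of the 243 peaks of scavenger and efferocytosis genes 91 (37.4%) were higher and 10 (4.12%) lower, with a median difference of 0.75. The start of Msr1, the class A scavenger receptor, had 6.82, 7.29, 6.51 and 6.47 in the rest phase, against 2.70, 3.52, 2.04 and 3.71 in the first phase (log2 fold 3.79, SE 0.39, adjusted p = 6.31e-06). Those first-phase levels come from 2, 4, 3 and 10 reads, so this start was close to closed there. A peak 9464 bases before Gas6, a ligand that bridges dying cells to the receptor Mertk, had 9.43, 9.36, 9.15 and 9.17 in the rest phase, against 5.50, 5.51, 5.34 and 5.80 in the first phase (log2 fold 3.73, SE 0.19, adjusted p = 1.15e-07). The start of Mertk also rose (1.82, SE 0.24, adjusted p = 4.32e-05). Lrp1, an endocytic receptor, had 14 higher and no lower of 26 peaks, and Msr1 10 and 0 of 19. Cd36, a receptor of fatty acids and oxidised lipoproteins, changed in both directions. Its first-intron peak had 8.41, 8.16, 7.03 and 7.09 in the rest phase, against 4.46, 4.04, 4.28 and 4.03 in the first phase (log2 fold 3.48, adjusted p = 4.83e-06). A peak annotated in its 5' UTR went the other way, with 2.64, 2.83, 2.75 and 3.86 in the rest phase, against 6.81, 6.84, 7.38 and 5.80 in the first phase (-3.65, adjusted p = 1.6e-05).

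Lysosomal genes had 79 higher and 28 lower of 224 peaks, with a median difference of 0.45. Ctsb, a cathepsin protease, had 11 higher and 1 lower of 14 peaks, Atp6v0d2, a proton pump subunit of macrophages and osteoclasts, 12 and 1 of 18, Lipa, the acid lipase, 11 and 1 of 16, and Mitf, a regulator of lysosomal genes, 12 and 0 of 50. Ctsd, another cathepsin, had 0 higher and 6 lower of 10, and Tfeb, a regulator of lysosome formation, 1 and 7 of 16. The peak 864 bases from the start of Npc2, a cholesterol carrier of the lysosome, had 7.80, 7.48, 7.61 and 7.86 in the rest phase, against 5.27, 4.29, 4.48 and 4.58 in the first phase (log2 fold 3.04, SE 0.24, adjusted p = 1e-06). Genes of alternative activation, the state linked to interleukin 4 and repair, had 89 higher and 36 lower of 258. Klf4, a zinc finger factor of monocytes and macrophages, held 75 of the 258 peaks, with 30 of the higher and 3 of the lower ones. Pparg, a lipid-sensing nuclear receptor, supplied 14 and 1. The Klf4 peak with the largest fold, 9218 bases before the start, had 7.37, 6.98, 6.95 and 6.62 in the rest phase, against 2.09, 3.23, 3.79 and 3.71 in the first phase (3.55, SE 0.32, adjusted p = 2.81e-06). Irf4, also of this list and a factor of B cells and dendritic cells too, had 7 higher and 10 lower of 28. Il4ra, the interleukin 4 receptor gene, had 2 higher and 4 lower of 13, Pdcd1lg2 1 and 6 of 18, Socs1 3 and 7 of 17, and Retnla 0 and 1 of 1. Of the 14 genes of the list with peaks, 4 had only higher calls, 1 only lower ones and 9 both.

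Many marker genes of neutrophils, erythroid cells and B cells were accessible in the first phase and near closed in the rest phase, which sets a limit on the label of the first-phase libraries. These carry the label of bone marrow derived macrophages, yet the starts of S100a9, Ngp, Slc4a1, Hbb-bt, Cd79a and Ms4a1 were open in all 4 of them, beside open starts of Cd68, Csf1r and Itgam. The starts of Gata1 and Ly6g, a neutrophil surface protein, did not pass the test. The peak at the start of S100a9 (chromosome 3, 90695611 to 90696010), which encodes a calcium-binding protein abundant in neutrophils, had 3, 6, 9 and 9 reads in the rest-phase libraries, against 371, 413, 507 and 729 in the first-phase ones. In log2 levels this is 1.86, 2.46, 3.30 and 3.32 in the rest phase, against 9.17, 9.19, 8.65 and 9.77 in the first phase, a log2 fold of -6.47 (SE 0.39, adjusted p = 2.6e-07). Its neighbour S100a8 kept a partly open start, at 6.06, 6.10, 7.09 and 6.74 in the rest phase, against 8.90, 8.85, 8.54 and 9.71 in the first phase (-2.54, SE 0.30, adjusted p = 2.16e-05). In bulk libraries, fewer cells of a type and less accessibility per cell cannot be told apart.

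Of the 125 peaks of neutrophil granule genes and their regulators 92 (73.6%) were lower and 3 higher, with a median difference of -2.06. Lower start peaks numbered 25 of 29, against 32.1% of all start peaks. Of the 19 genes of this list with peaks, none had only higher calls and 16 had only lower ones. S100a9 had 8 lower of 8 peaks, Fcnb, a ficolin of granules, 8 of 8, Csf3r, the receptor of G-CSF, 9 of 10, and Padi4, an enzyme of neutrophil extracellular traps, 9 of 10. The start of Ngp stood at 2.91, 2.83, 3.83 and 3.51 in the rest phase, against 7.74, 7.89, 7.65 and 8.71 in the first phase (-4.79, SE 0.35, adjusted p = 7.61e-07). That of Csf3r stood at 5.03, 4.95, 5.35 and 5.76 in the rest phase, against 8.37, 8.37, 7.65 and 8.56 in the first phase (-2.92, SE 0.29, adjusted p = 4.92e-06). Gfi1 and Cebpe, transcription factors of granulocyte maturation, had 0 higher and 5 lower of 8 peaks, and 1 and 4 of 10. The peak of Cebpe with the largest fold, 5986 bases from its start, stood at 3.71, 2.83, 4.30 and 3.51 in the rest phase, against 7.73, 7.77, 8.21 and 8.19 in the first phase (-4.46, SE 0.34, adjusted p = 9.13e-07). The 9 defining start peaks summed to 233 to 303 scaled reads in rest-phase libraries and to 1591 to 3289 in first-phase ones.

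Erythroid genes had 42 lower (48.3%) and 8 higher (9.2%) of 87 peaks, against 18.9% and 19.4% over all peaks. Lower start peaks numbered 21 of 24, against 32.1% of all start peaks. Slc4a1, the anion exchanger of red cells, had 1.86, 1.00, 3.83 and 3.17 at its start in the rest phase, against 8.16, 7.94, 8.30 and 7.01 in the first phase (-5.32, SE 0.57, adjusted p = 8.66e-06). Hbb-bt stood at 2.25, 2.25, 1.39 and 2.64 in the rest phase, against 7.22, 7.07, 7.87 and 6.19 in the first phase (-4.94, SE 0.43, adjusted p = 2.16e-06). A peak 11188 bases from Or51b4, an olfactory receptor gene that neighbours the beta globin genes, was lower as well (-5.56, SE 0.59, adjusted p = 9.04e-06). Alas2, the first enzyme of haem synthesis in red cells, had 1.46, 2.09, 3.09 and 2.64 at a peak 2153 bases from its start in the rest phase, against 7.49, 7.44, 7.92 and 6.48 in the first phase (-4.97, SE 0.44, adjusted p = 2.36e-06). The start of Gata1, the master factor of the lineage, was low in both phases and did not pass (-0.28, SE 0.43, adjusted p = 0.646), while an intronic peak 3388 bases away did (-4.94, SE 0.53, adjusted p = 8.94e-06). The 4 defining erythroid peaks summed to 20 to 46 scaled reads in the rest phase and 248 to 608 in the first phase.

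B cell genes had 59 lower (37.6%) and 18 higher (11.5%) of 157 peaks, against 18.9% and 19.4% over all peaks. Lower start peaks numbered 19 of 27, against 32.1% of all start peaks. Ebf1, an early B cell factor, had 15 lower and 1 higher of 19, while Il7r, the interleukin 7 receptor, had 8 higher and 1 lower of 23. The start of Cd79a, the signalling chain of the B cell receptor, stood at 2.73, 2.83, 4.59 and 2.91 in the rest phase, against 7.74, 7.78, 8.02 and 5.80 in the first phase (-3.93, SE 0.54, adjusted p = 6.72e-05). Ms4a1, which encodes CD20, stood at 2.95, 3.27, 4.16 and 2.32 in the rest phase, against 7.66, 7.62, 7.90 and 6.06 in the first phase (-4.02, SE 0.48, adjusted p = 2.12e-05). The 5 defining B cell starts summed to 81 to 154 scaled reads in the rest phase and to 965, 928, 1225 and 344 in libraries A1, A2, B1 and B2 of the first phase. Library B2 was thus the lowest for B cell and erythroid markers and, at 3289, the highest for neutrophil ones. Without it 81 neutrophil, 40 erythroid and 63 B cell peaks were lower. T and NK cell genes had 49 lower (38.6%) and 16 higher (12.6%) of 127 peaks. Their 4 defining peaks summed to 105 to 189 in the rest phase and 223 to 246 in the first phase. None of the defining marker peaks that were tested had 0 reads in any of the 8 libraries. What part the cell types behind these markers have in the other differences between phases was not tested.

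**Figure D4:**
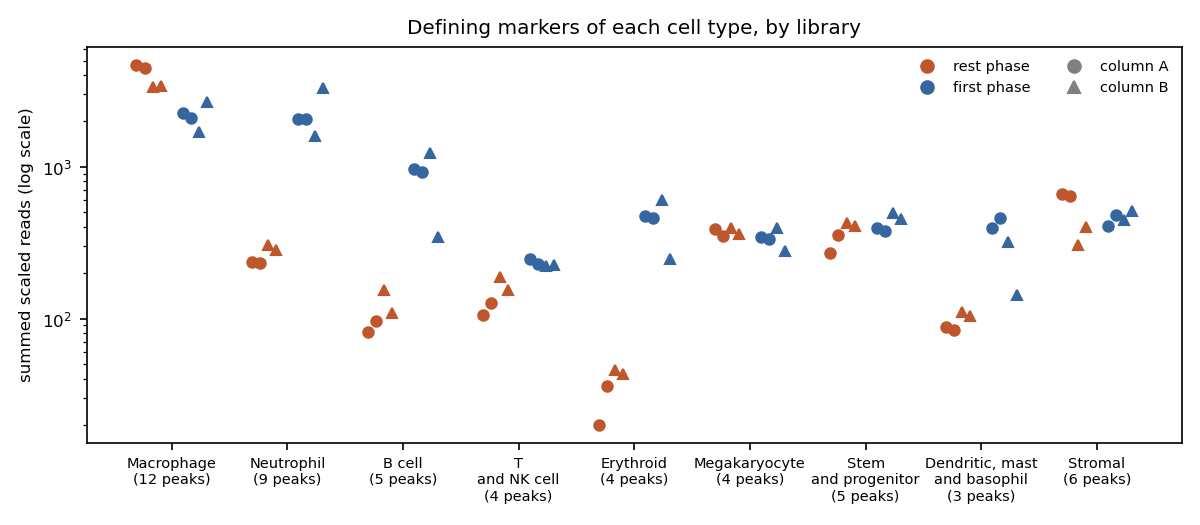
Summed quantile-scaled reads (log axis) over the peaks of the defining markers of 9 cell types in each library, rest phase in orange at the left and first phase in blue at the right of each pair, with circles for column A and triangles for column B. Macrophage sums are higher in all rest-phase libraries, neutrophil, B cell and erythroid sums are several times lower in them, and megakaryocyte and stem and progenitor sums overlap.

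The 582 peaks of myeloid transcription factors held 131 higher ones (22.5%) and 104 lower ones (17.9%), near the shares over all peaks (19.4% and 18.9%), with a median difference of 0.10. Klf4 and Batf3, a factor of dendritic cells, had more higher than lower peaks (30 and 3 of 75, and 5 and 0 of 16). Spi1, Gfi1 and Cebpb, a C/EBP factor of macrophage activation, had only lower ones among those called (8 of 11, 5 of 8 and 3 of 5). Runx1, a factor of blood formation, had 18 higher and 17 lower of 94, and Irf8, a factor of monocytes and dendritic cells, 7 and 12 of 43. A peak 3490 bases before the Spi1 start had 3.60, 3.97, 2.46 and 2.04 in the rest phase, against 7.25, 7.31, 7.53 and 6.56 in the first phase (-4.11, SE 0.45, adjusted p = 1.11e-05), against -0.76 at the start. Immediate early genes, which answer growth factors and stress within minutes, had 49 higher (18.1%) and 60 lower (22.1%) of 271. Jun had 4 higher and 17 lower of 53 peaks, Btg2, an anti-proliferative gene, 1 and 8 of 13, and Atf3, a stress factor, 6 and 0 of 10. The counts of the immediate early list did not keep a direction under other settings. With total reads 61 were higher and 47 lower, beside 26.4% and 13.4% over all peaks. Without column A of the rest phase the list had 55 and 51, and without first-phase library B2 50 and 50.

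The osteoclast list, of interest because macrophages can fuse into bone-resorbing osteoclasts, had 85 higher (22.1%) and 84 lower (21.8%) of 385 peaks. These are near the shares over all peaks, 19.4% and 18.9%. Tnfrsf11a, the receptor RANK, had 8 higher and no lower of 21, Ctsk, the collagen-cutting cathepsin K, 5 and 0 of 8, and Dcstamp, which is needed for cell fusion, 3 and 0 of 4. Nfatc1, the main factor of osteoclast differentiation, had 3 higher and 10 lower of 22. Car2, a carbonic anhydrase also abundant in red cells, had 0 and 4 of 9, and Mmp9, a protease also stored in neutrophil granules, 1 and 8 of 11. Genes of M-CSF receptor signalling had 94 higher (25.1%) and 59 lower (15.7%) of 375. Csf1r had 7 higher and no lower of 11, and Dusp4, a MAP kinase phosphatase, 17 and 2 of 27. Pik3r1, a regulatory subunit of PI3 kinase, had 18 and 18 of 87.

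Inflammatory genes were mixed, while interferon genes, and with quantile scaling those of antigen presentation, were more often lower than higher in the rest phase. The 202 peaks of classical activation genes held 50 higher (24.8%) and 44 lower (21.8%) ones, beside 19.4% and 18.9% over all peaks. Ccl2, a monocyte chemokine, had 10 higher and no lower of 12, and Nlrp3, an inflammasome sensor, 6 and 0 of 8, while Il1b, a cytokine also made by neutrophils, had 0 and 8 of 17, and Acod1, the itaconate enzyme, 0 and 4 of 6. Interferon response genes had 7 higher and 31 lower of 103 peaks, with a median difference of -0.44. The peak assigned to Oasl2, an antiviral gene, lies 13484 bases before its start in the 3' UTR of a gene, and had 2.04, 2.25, 4.16 and 2.04 in the rest phase, against 8.16, 8.37, 7.68 and 8.54 in the first phase (-5.54, SE 0.47, adjusted p = 1.8e-06). MHC class II genes, which present antigen, had 11 higher and 24 lower of 77 peaks. Of their 26 start peaks 13 were lower and 1 was higher, and of 33 start peaks of interferon genes 12 and 1. Over all start peaks 32.1% were lower and 12.3% higher. Start peaks made up 16.7% of all peaks, a smaller part than in these 2 lists. What part this has in the lean of the lists was not tested. With total reads in place of quantile scaling the class II list had 16 higher and 15 lower and the interferon list 12 and 20. Over all peaks that scaling gave 26.4% higher and 13.4% lower. B cells express MHC class II genes too, and the summed level of the list was 4972 to 5975 scaled reads in the rest phase and 6771 to 8826 in the first phase.

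Lipid genes changed in both directions. Peaks of acyl-CoA synthetases and fatty acid transport genes were higher at 43 and lower at 30 of 168. Acsl1, the long-chain acyl-CoA synthetase named in the title of the study, had 1 higher and 14 lower of 23 peaks. Its peak with the largest fold, 15043 bases before the start, had 2.25, 2.09, 2.75 and 2.04 in the rest phase, against 6.30, 6.37, 6.71 and 4.17 in the first phase (-3.45, SE 0.53, adjusted p = 0.000153). Acsl4, which prefers polyunsaturated fatty acids, had 10 higher and no lower of 28, with 6.98, 6.58, 6.51 and 6.34 in the rest phase, against 2.09, 3.23, 2.86 and 1.46 in the first phase at the peak with the largest fold, 127374 bases before the start (4.24, SE 0.37, adjusted p = 2.26e-06). Acsl3, a synthetase of lipid droplets, had 5 and 0 of 15. Genes of triglyceride storage and lipolysis had 51 higher and 57 lower of 190. With total reads they had 60 and 43, beside 26.4% higher and 13.4% lower over all peaks. Among them Lpl, the lipoprotein lipase, had 12 and 0 of 18 and Plin2, a lipid droplet coat protein, 10 and 0 of 12. Mgll, the monoglyceride lipase, had 1 and 17 of 23, and G0s2, an inhibitor of lipolysis, 0 and 5 of 5.

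Cholesterol genes had 38 higher and 22 lower of 174. Abca1, the efflux pump, had 11 higher and no lower of 29, and its peak with the largest fold stood at 8.27, 7.94, 7.22 and 7.38 in the rest phase, against 4.02, 4.48, 4.04 and 5.13 in the first phase (3.22, SE 0.33, adjusted p = 6.05e-06). Srebf2, the factor that drives cholesterol synthesis, had 0 and 4 of 10. Fatty acid synthesis genes had 18 higher and 19 lower of 145 (12.4% and 13.1%), and 25 and 13 with total reads. Fatty acid oxidation genes had 9 higher and 22 lower of 105, and 17 and 15 with total reads. That scaling gave 26.4% higher and 13.4% lower over all peaks. Scd1, a desaturase, had 2 higher and 4 lower of 15 peaks. A lower one, 29789 bases away, stood at 2.39, 2.83, 3.51 and 3.32 in the rest phase, against 7.90, 8.03, 8.67 and 6.34 in the first phase (-4.65, SE 0.47, adjusted p = 6.13e-06). Glycolysis genes had 38 higher and 52 lower of 218. Pfkp, the platelet-type phosphofructokinase, had 8 higher and 3 lower of 28, with 8.22, 7.62, 7.39 and 7.38 in the rest phase, against 3.52, 2.75, 3.32 and 3.38 in the first phase at the peak with the largest fold (4.36, SE 0.28, adjusted p = 3.81e-07). Slc2a3, a glucose transporter, had 1 and 7 of 17, and Pfkfb3, a glycolytic activator, 3 and 10 of 27. Without first-phase library B2 the glycolysis list had 41 higher and 40 lower (18.1% and 17.1% over all peaks). With total reads it had 51 and 38, beside 26.4% and 13.4% over all peaks.

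**Figure D5:**
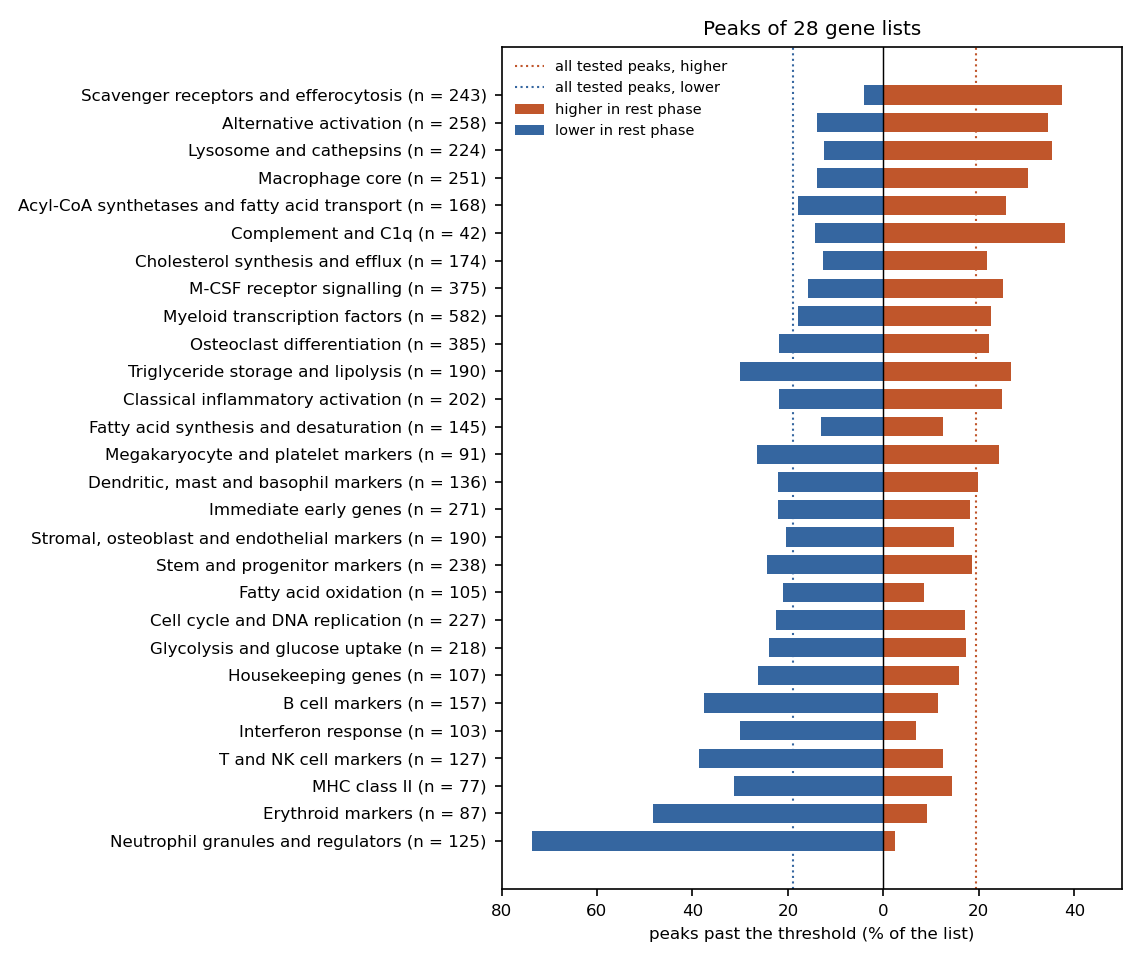
Share of the peaks of each of 28 gene lists that were higher (orange, to the right) or lower (blue, to the left) in the rest phase at an adjusted p under 0.05, ordered by the list's median difference, with dotted lines at the shares over all tested peaks (19.4% higher and 18.9% lower). Scavenger and efferocytosis genes stand at the top, with 37.4% higher and 4.12% lower, and neutrophil genes at the bottom, with 2.4% higher and 73.6% lower.

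MicroRNA genes of known blood lineages followed both patterns. They were chosen after their values were seen. The mature sequences of 6 of them are given with the seed, bases 2 to 8, which pairs with target transcripts, in capitals (RefSeq, GRCm38.p6).
mmu-miR-144-3p: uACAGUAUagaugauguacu
mmu-miR-451a: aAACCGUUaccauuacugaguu
mmu-miR-223-3p: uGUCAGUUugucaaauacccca
mmu-miR-221-3p: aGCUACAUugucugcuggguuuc
mmu-miR-222-3p: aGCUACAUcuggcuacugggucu
mmu-miR-21a-5p: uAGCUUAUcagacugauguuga
miR-144 and miR-451a, which come from 1 locus of erythroid cells on chromosome 11, lie beside 4 peaks assigned to Mir144 and 1 assigned to Mir451b, and all 5 were lower in the rest phase. The peak 2966 bases before Mir144 had 2.55, 2.09, 3.83 and 3.32 in the rest phase, against 7.44, 7.19, 7.91 and 6.56 in the first phase (-4.32, SE 0.44, adjusted p = 6.07e-06). miR-223, abundant in granulocytes, had 3 lower and 1 higher of 5 peaks, and its start peak stood at 5.94, 5.83, 5.16 and 4.95 in the rest phase, against 7.67, 7.70, 7.12 and 7.96 in the first phase (-2.12, SE 0.31, adjusted p = 9.67e-05). Mir142 had 5 lower of 6 and Mir150, of lymphocytes, 1 of 1. Mir146 had 1 higher and 5 lower of 11, and Mir511 3 and 0 of 6, of which 1 lost its call without column A of the rest phase (0.50). miR-221-3p and miR-222-3p share the seed GCUACAU and lie side by side on the X chromosome. Of 17 peaks assigned to Mir221 11 were higher, and of 16 assigned to Mir222 8, with none lower. On the X chromosome 29.1% of all peaks away from starts were higher and 7.1% lower, against 20.6% and 16.5% on autosomes. A peak 102753 bases from Mir221 had 6.88, 6.46, 5.82 and 6.18 in the rest phase, against 2.09, 2.75, 2.64 and 2.25 in the first phase (3.88, SE 0.33, adjusted p = 1.91e-06). Mir21a had 3 higher and 1 lower of 6, and the peak with the largest fold stood at 7.18, 7.10, 7.96 and 8.19 in the rest phase, against 3.19, 5.01, 4.68 and 3.71 in the first phase (3.35, SE 0.33, adjusted p = 5.03e-06). Mir155, of activated macrophages and B cells, had 2 lower of 3, and the weaker of these, annotated as a 3' UTR 3770 bases from the start, lost its call under 5 of the 16 other settings.

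The peaks with the greatest gains lay outside the lists. An intronic peak nearest to Aopep, an aminopeptidase gene, had 8.92, 8.41, 8.30 and 8.29 in the rest phase, against 3.52, 2.17, 3.32 and 3.52 in the first phase (5.20, SE 0.26, adjusted p = 9.52e-08), and 24 of 59 Aopep peaks were higher and 2 lower. An intronic peak of Cpe, carboxypeptidase E, stood at 9.40, 9.27, 9.22 and 9.17 in the rest phase, against 4.46, 4.04, 4.16 and 4.30 in the first phase (5.02, SE 0.20, adjusted p = 2.27e-08). A peak 2941 bases from Folr2, a folate receptor of tissue macrophages, rose by 4.82 (SE 0.29, adjusted p = 2.66e-07). The nearest gene need not be the one that such a distal element serves. Among genes with many peaks, Cadm1, an adhesion molecule, had 30 higher and no lower of 53, Dab2, an endocytic adaptor, 25 and 3 of 54, and Pde4d, a cyclic AMP phosphodiesterase, 38 and 11 of 120. On the lower side, Foxp1, a forkhead factor, had 13 higher and 38 lower of 120, Cxcr4, the chemokine receptor that retains cells in marrow, 3 and 31 of 46, Prex1, a Rac activator of neutrophils, 2 and 29 of 52, and Igf1r, the receptor of insulin-like growth factor, 1 and 26 of 46. Of 19377 genes with a tested peak, 4187 had only higher calls, 4780 only lower ones, 5901 both and 4509 none.

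The letters of the promoters differed between the directions. Of the 32851 RefSeq promoter windows of 300 bases, 11222 had at least 150 bases in a tested peak, of which 921 lay in a higher peak, 4479 in a lower one and 5822 in one that did not pass. The AP-1 motif TGANTCA was present in 14.7% of the windows in higher peaks, 3.8% of those in lower peaks, and 6.35% of all 11222. In the same order, the PU.1 motif GAGGAAGT was in 6.84% of windows in higher peaks and 3.42% of those in lower ones, with 4.12% of all, and the MAF motif TGCTGAC in 5.97% and 3.55%, with 3.96% of all. The C/EBP motif TTGCNNAA was in 11.7% of windows in higher peaks, 7.57% of those in lower ones and 8.74% of all. The GC box GGGGCGGGG ran the other way, in 12.4% and 27.3%, with 21.9% of all. The GATA motif AGATAA was in 6.51% and 6.59%, with 6.17% of all, and the motif of interferon regulatory factors in 3.15% and 3.06%, with 3.02% of all. The RUNX motif TGTGGTT was in 6.19% and 4.22%, with 4.23% of all, and the KLF motif CCACACCC in 4.89% and 4.29%, with 4.23% of all. The E-box CACGTG of MITF and TFE factors was in 8.9% and 11.6%, with 10.7% of all, and the E2F motif TTTCCCGC in 1.3% and 1.99%, with 2.03% of all. Base composition differed as well, with a median GC content of 56% in higher and 63.3% in lower windows, and 11 and 24 CG dinucleotides. What part base composition has in the motif shares was not tested. All motifs were searched on both strands, and in 18 windows an AP-1 match overlapped a MAF match. All shares are descriptions of these windows and carry no test.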

How the data were processed

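Per the submitters' processing notes, the tools were HOMER 5.1, DESeq2, DiffBind 3.14.0, MACS2, bedtools 2.28.0, Picard 3.2.0, deepTools 3.2.1 and Bowtie2 2.5.4, on the mm10 build; which tool did what is not stated. For each phase the authors deposited a table of 139999 annotated peaks with 2 columns of log2 group means, scaled within the phase. From the values, each is the log2 of a mean over 2 libraries of reads times a fixed worth of 1 read, with means under 1 listed as 0. The reads of both libraries were recovered from these steps, with exactly 1 solution per value and a largest relative miss of 3.46e-09, and the method was tested on simulated data. The libraries of a column were numbered by the worth of a read, since the columns carry no labels.

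The 4 columns were quantile-scaled together for group means, and the 8 libraries for per-library levels, given as log2(scaled reads + 1). Peaks with a listed 0 (428) were not tested. Phases were compared with limma 3.58.1 (R 4.3.3, moderated variance with a trend), both groups of a phase pooled, with Benjamini-Hochberg adjustment over all tested peaks and a threshold of 0.05. Named peaks are the 15 largest folds and the 10 largest at starts in each direction, 1 peak a gene, the called peaks of up to 4 genes per list and direction, and defining genes. The members, lists and rules were chosen with earlier results of these data known. Other scalings, pseudocounts, filters, sample definitions and each library left out were tried. Intervals for single values are not given. The depth of a peak, a median of 9 to 56 reads per library, limits precision at low levels. Sequences are from RefSeq tables of GRCm38.p6, the build that mm10 names; 359 of 461 list genes had a promoter window. The second-phase libraries are not used here.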

Additional observations from a re-analysis of the deposited data

Results flagged for a closer look

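In 19 of 341 results 1 of the 4 rest-phase libraries lay far from the other 3, relative to the range. Chance gives about 1 in 20, near this number, so no pattern is read from the flags. The measure takes the 4 libraries as alike, while columns A and B differ and B1 has the fewest reads, 5454931. Library B1 stood out in 10 of them, B2 in 5, and A1 and A2 in 2 each. All values here are log2 levels.

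Among the flagged results, B1 was high at peaks of Cd79a, Pax5 and Lef1. Cd79a stood at 4.59 (2.73 to 2.91 in the others), Pax5, a B cell factor, at 3.66 (2.64 in the others), and Lef1, a factor of T cells, at 4.01 (2.09 to 2.39). It was also high at Oasl2 (4.16, others 2.04 to 2.25), at Scarb1, a lipoprotein receptor (5.07, others 2.64 to 2.83), and at Mir146 (5.07, others 3.66 to 3.86). It was low at C4b, of complement (7.45, others 7.92 to 7.94), at Hadh, of fatty acid oxidation (3.51, others 4.40 to 4.57), at the basophil protease gene Mcpt8 (4.30, others 4.84 to 4.95), and in the median of the list of dendritic, mast and basophil markers (4.66, others 4.79 to 4.80).

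B2 was high at the 5' UTR peak of Cd36 (3.86, others 2.64 to 2.83), at Gpi1, of glycolysis (3.17, others 2.73 to 2.75), and in the median of the fatty acid oxidation list (5.00, others 4.72 to 4.73). It was low at Itgb2l, an integrin of neutrophils (2.04, others 3.13 to 3.30), and at the interleukin 4 receptor gene Il4ra (4.16, others 4.74 to 4.84). A1 was high at H2-DMa, of antigen loading (6.67, others 6.03 to 6.11), and low at Zbtb46, of dendritic cells (5.01, others 5.30 to 5.35). A2 was low at Fhod3 (8.91, others 9.21 to 9.26) and Focad (8.72, others 9.42 to 9.53).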

How the results depend on the processing

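The number of peaks past the threshold, 53501, stayed within 1.5 times under all 16 other settings. It was 55485 with total reads, 52987 with median-of-ratios scaling, 54036 with a pseudocount of 4, 48793 among peaks with a mean of at least 20 reads, 57671 with the 8 libraries separate, 45332 with the 4 group means, 65492 with a contrast of group averages and 42899 without column A of the rest phase. With 1 library left out it ran from 43729 to 55837 (22405 to 28335 higher and 21324 to 27502 lower). Of 5000 values of the 313 named peaks under other settings none changed sign with a call in either setting. Call status stayed the same for 4910, 74 lost the call and 16 gained it. Most named peaks were picked among large called folds, which favours keeping the call. Of all 53501 called peaks, 43544 were called in the same direction with total reads and 38890 without column A of the rest phase. Of the 299 named peaks that were called 23 lost the call at least once, 12 of them without column A of the rest phase and 11 with total reads. The median difference of start peaks was -0.57 in place of -0.35 when group means were centred without quantile scaling. The number of the 28 lists with a median above 0 was 15, and 8 with start peaks alone; the cause was not tested, though start peaks lean lower as a class. No paired analysis was possible because the columns carry no replicate numbers. Motif shares in the central 200 bases of peaks were not run, since no genome was used. The shallowest libraries had a median of 9 reads per peak, which limits the precision of low levels.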

Other observations

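The X chromosome stood apart from the autosomes away from gene starts. Of its 2862 tested peaks 25.6% were higher and 11.3% lower in the rest phase, with a median difference of 0.50, against medians of -0.11 to 0.15 over single autosomes, where 17.1% to 21.2% were higher and 15.6% to 22.4% lower. Start peaks of the X behaved much as those of autosomes did, with 12.1% higher and 27.9% lower of 580. Its other peaks were 29.1% higher and 7.1% lower, with a median difference of 0.69, against 20.6%, 16.5% and 0.10 for other peaks of autosomes. The median log2 level of X peaks away from starts was 4.37, 4.43, 3.51 and 4.16 in rest-phase libraries A1, A2, B1 and B2, against 3.52, 3.52, 3.51 and 3.38 in first-phase ones. Rest-phase library B1 thus lay within the first-phase values, and the other 3 above them. These differences between chromosomes carry no test.

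Several other gene groups leaned less strongly than the neutrophil or scavenger lists, beside 19.4% higher and 18.9% lower over all peaks. Cell cycle genes had 39 higher (17.2%) and 51 lower (22.5%) of 227 peaks (55 and 45 with total reads). Among them E2f2, an activator of replication genes, had 0 higher and 10 lower of 12 and Ccnd3, cyclin D3, 0 and 13 of 18, while Cdk6, a partner of D cyclins, had 17 and 4 of 46. Stem and progenitor markers had 44 higher (18.5%) and 58 lower (24.4%) of 238, and megakaryocyte and platelet markers 22 (24.2%) and 24 (26.4%) of 91. Dendritic, mast and basophil markers had 27 (19.9%) and 30 (22.1%) of 136, and stromal, osteoblast and endothelial markers 28 (14.7%) and 39 (20.5%) of 190. With total reads these 4 lists had more higher than lower peaks, as did all peaks (26.4% higher and 13.4% lower). Housekeeping genes had 17 higher (15.9%) and 28 lower (26.2%) of 107, with a median difference of -0.20.

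A changed start did not fix the direction of the other peaks of a gene. Of 1653 genes whose start peaks were higher, 69.6% had a higher peak elsewhere and 40% a lower one. Of 4765 genes whose start peaks were lower, 52.6% had a higher peak elsewhere and 60.1% a lower one. Among the 5879 genes whose start peaks were neither or both, 57.2% had a higher peak elsewhere and 44.4% a lower one. Calls were more frequent at deeper peaks, from 10.1% higher and 7.26% lower in the lowest of 4 equal bins of level to 27.7% and 27.2% in the highest.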
